A study of Mus musculus with 21 samples.

Results

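The small leucine-rich proteoglycans are secreted matrix proteins whose core is a run of leucine-rich repeats, and lumican (Lum) is 1 of them. The 10 members described here, Lum, Dcn, Fmod, Ogn, Omd, Aspn, Prelp, Podn, Ecm2 and Chad, were chosen by gene symbol, and 10 of 10 were measured among 16248 genes. Lum was included because it was already known to be higher in HFD fat than in ND fat and lower in H_FMG fat than in HFD fat, so its values in those 2 comparisons are given as a description. Each gene was read from 1 probe set, the brightest one that the platform annotation pairs with a single symbol; only Fmod and Prelp had a second one.

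Most of these proteins bind fibrillar collagen from the outside and set how thick the fibrils grow and how they are spaced. Many carry chondroitin, dermatan or keratan sulfate chains, and some, decorin above all, also bind growth factors such as TGF-beta and cell surface receptors. In fat they belong to the matrix that stromal fibroblasts lay down around adipocytes, and this matrix is remodelled as a fat pad expands.

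The tissue was epididymal fat, the visceral pad next to the testis, and RNA was read on GeneChip whole-transcript arrays. Male C57BL/6J mice arrived at 4 weeks of age, acclimated for 1 week and were kept on a diet for 12 weeks. Each of 7 groups has 3 arrays, 21 in total, which carry their group and title number as names. H_FMG mice ate the high-fat diet with 0.9% by weight of fermented mixed grain, L_FMG mice the same diet with 0.3% fermented mixed grain, SMG mice with 0.3% steamed grain and BC mice with 0.3% Bacillus coagulans, a spore-forming bacterium. RMG is a code; its samples are labelled with the high-fat diet, and the protocols used here describe neither its supplement nor its dose. HFD mice ate the high-fat diet alone, with 40% of energy from fat, and ND mice the normal diet, with 10%. Groups of 10 mice are stated for SMG, BC, HFD and ND, and the labels do not say how the arrayed animals were chosen. All mice were housed singly, but nothing says that each array is a separate animal beyond its number, so p-values measure the spread between these samples.

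All levels are log2 values as deposited, so a difference of 1 is a doubling. A probe's brightness depends on its own sequence, so levels are compared between arrays and not between genes. Of the markers of the labelled tissue, Fabp4, the fatty acid carrier of adipocytes, lay between 11.98 and 12.32 and Adipoq, the adipocyte hormone adiponectin, between 8.68 and 9.80, so no array lacked them by comparison with the others. Of 6 epididymal markers measured, none exceeded 4.65 on any array. 1 array stood apart. ND 9 differed from the other arrays of its group by 0.307 on average over genes, against 0.146 to 0.233 for the remaining 20 arrays. Its fibroblast marker mean was 7.81, against 8.39 and 8.25 in ND 6 and ND 8, and its macrophage marker mean was 8.25, against 7.69 and 7.58. Of the 10 members, 6 had their lowest level of all 21 arrays there, so values without it stand beside comparisons of a member with ND where leaving it out changes a call or moves the value by over 1.5 times.

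Lum, a keratan sulfate proteoglycan best known for the even collagen spacing of the cornea, varied most among the members. Its level was 8.74, 8.99 and 8.74 in HFD arrays, against 7.23, 7.36 and 7.68 in ND arrays. All 3 HFD arrays lay above all 3 ND arrays, a difference of 1.40 ± 0.26 log2 units (SE), or 2.64-fold, and 1.53 ± 0.28 without ND 9. In RMG fat it stood at 9.11, 9.13 and 9.05, with the highest mean and the smallest spread of any group. SMG arrays read 9.14, 8.75 and 8.29, and BC arrays 7.99, 8.74 and 8.58. Both groups overlapped the HFD arrays.

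With fermented grain the mean of Lum was lower at the higher dose, but the arrays of the 2 doses overlapped. The 3 L_FMG arrays had 8.65, 8.18 and 7.88, and the 3 H_FMG arrays 8.32, 7.81 and 7.10. H_FMG 8 was the lowest of all 21 arrays and lay below every ND array, while H_FMG 3 lay above all ND arrays. The difference from HFD was -0.59 ± 0.26 in L_FMG and -1.08 ± 0.26 in H_FMG, and in neither case did the arrays overlap with HFD. H_FMG against L_FMG was -0.49 (95% interval -1.03 to 0.04, limma adjusted p = 0.998), and it was -0.17 without H_FMG 8, -0.29 without L_FMG 4 and -0.78 without H_FMG 3. Per percent of fermented grain, over the doses 0, 0.3 and 0.9, the slope was -1.14 ± 0.28 log2 units. Ordered by mean, the groups ran RMG 9.10, HFD 8.82, SMG 8.72, BC 8.44, L_FMG 8.24, H_FMG 7.74 and ND 7.42. Each neighbouring pair in that order overlapped in its arrays except RMG and HFD, which were 0.28 apart; 6.35% of all genes had RMG arrays wholly above HFD arrays.

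**Figure D1:**
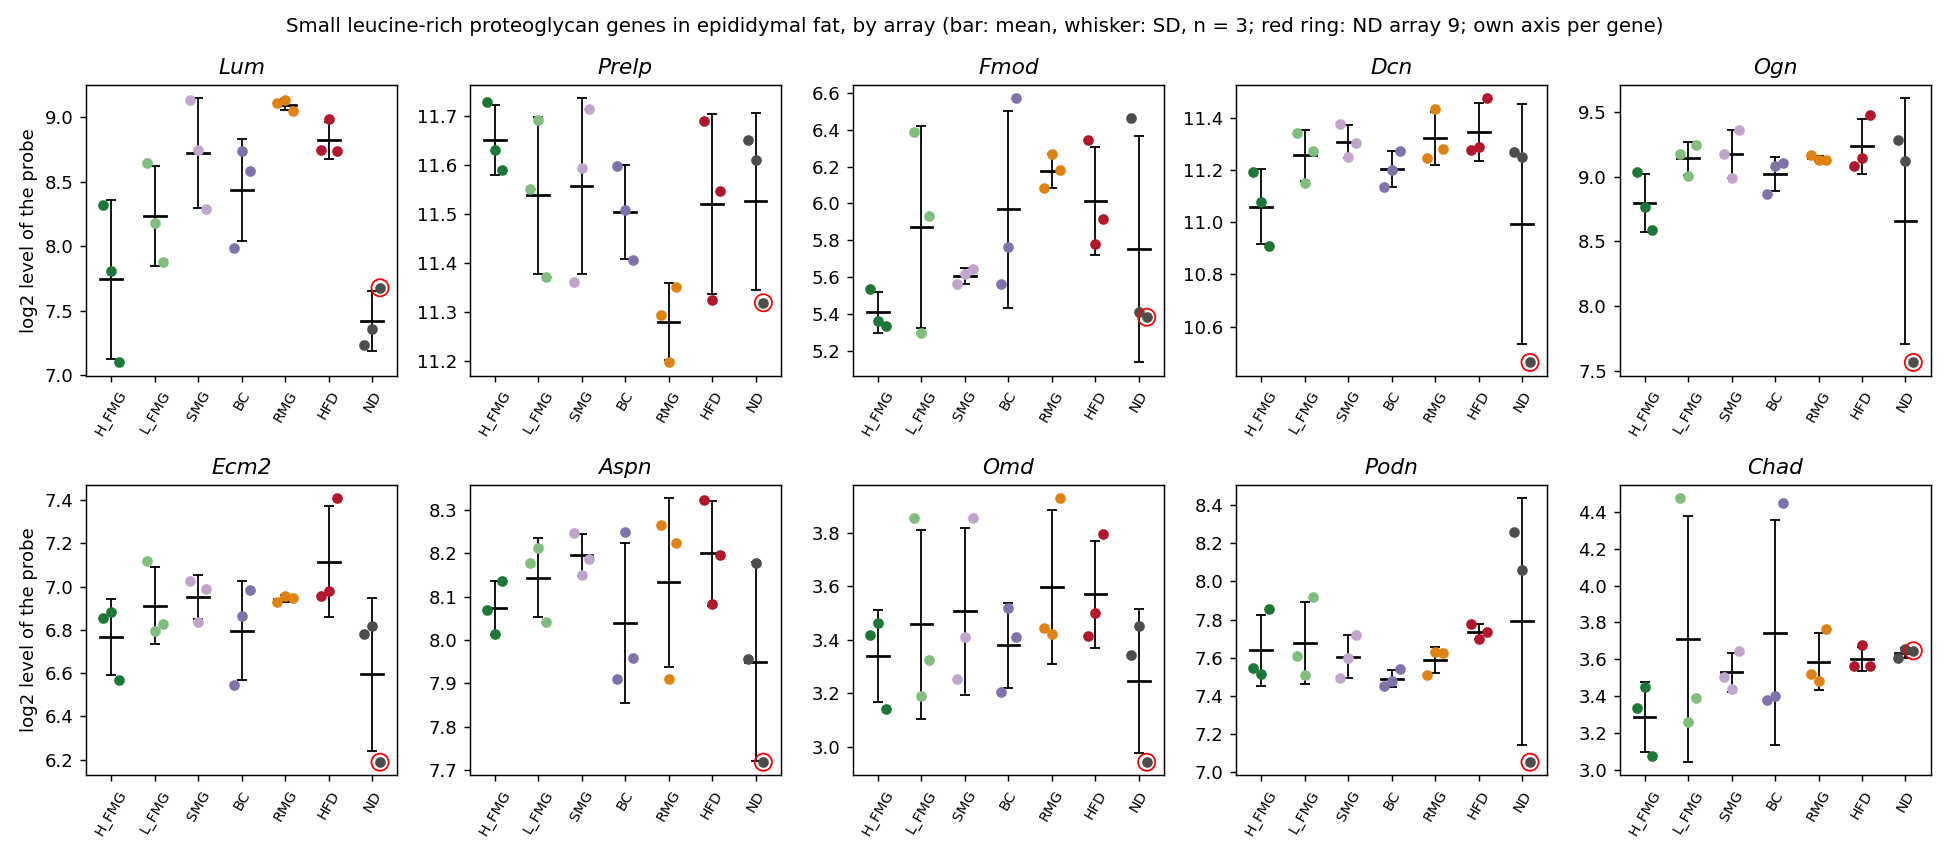
Deposited log2 level of each of the 10 members on each of 21 arrays (points) by group, with group means; each panel has its own vertical axis in log2 units. Lum spans 7.10 to 9.14 over the arrays, and ND 9 is the lowest array for Dcn, Ogn, Omd, Aspn, Podn and Ecm2.

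In the remaining comparisons Lum was tested with limma and Benjamini-Hochberg adjustment over all 16248 genes. Lum rose in RMG against ND by 1.68 ± 0.26 (SE, adjusted p = 0.000346), or 3.2-fold, and was the 1 member called of 10, where 14.8% of all genes were called in either direction and 10.2% higher. It also rose in SMG against ND by 1.30 ± 0.26 (adjusted p = 0.0105), again as the 1 member called, beside 5.83% of genes in either direction and 4.74% higher. In BC against ND the difference was 1.01 ± 0.26 (adjusted p = 0.0838), in L_FMG against ND 0.81 ± 0.26 (adjusted p = 0.199) and in H_FMG against ND 0.32 ± 0.26 (adjusted p = 0.762), so none of these passed in this fit; 0.111% of genes passed in BC against ND. BC against ND did pass without ND 9 (1.14 ± 0.28, adjusted p = 0.0403) and with array weights (1.11, adjusted p = 0.00764), and L_FMG against ND with array weights (0.93, adjusted p = 0.0326). Without ND 9 the values were 0.94 ± 0.28 in L_FMG, 1.43 ± 0.28 in SMG and 1.80 ± 0.28 in RMG. H_FMG against ND has a 95% interval of -0.21 to 0.86. These comparisons share the 3 ND arrays, and Lum was chosen in part for being low on them. Its p-values against ND are therefore given as a description. The SMG call was lost without SMG 5 (1.09, adjusted p = 0.0916) and without SMG 8 (1.29, adjusted p = 0.0618), and when only SMG and ND arrays were fitted (adjusted p = 0.173). The RMG call held in each of the 15 other settings, with adjusted p at most 0.00315.

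Against HFD, on whose arrays Lum was also chosen in part, no supplement changed it past the threshold in the main fit. That includes H_FMG, but Lum was chosen on that comparison, so nothing is read from the test there. The differences were -0.59 in L_FMG (adjusted p = 0.543), -0.10 in SMG (adjusted p = 1), -0.39 in BC (adjusted p = 0.936) and 0.28 in RMG (adjusted p = 1), with 95% intervals of -1.12 to -0.05, -0.64 to 0.44, -0.92 to 0.15 and -0.26 to 0.81. At the matched dose of 0.3%, L_FMG differed from SMG by -0.49 (95% interval -1.02 to 0.05, adjusted p = 0.844) and from BC by -0.20 (-0.74 to 0.33, adjusted p = 0.999). A joint F test over the 6 high-fat groups called 8 genes, 0.0492% of those tested. For each member other than Lum its adjusted p was at least 0.572; Lum is left out here because the test holds the H_FMG and HFD arrays it was chosen on. The widest gap between supplements, H_FMG against RMG, was picked after its values were seen: Lum was lower there, with a difference of -1.36 ± 0.26 log2 units (adjusted p = 0.00755), as the 1 member of 10 called, beside 7.19% of genes, 4.92% lower and 2.28% higher. Without H_FMG 8 it missed the threshold (-1.03, adjusted p = 0.0759). Lum was also chosen in part for being low in H_FMG, so its p-values here are given as a description.

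**Figure D2:**
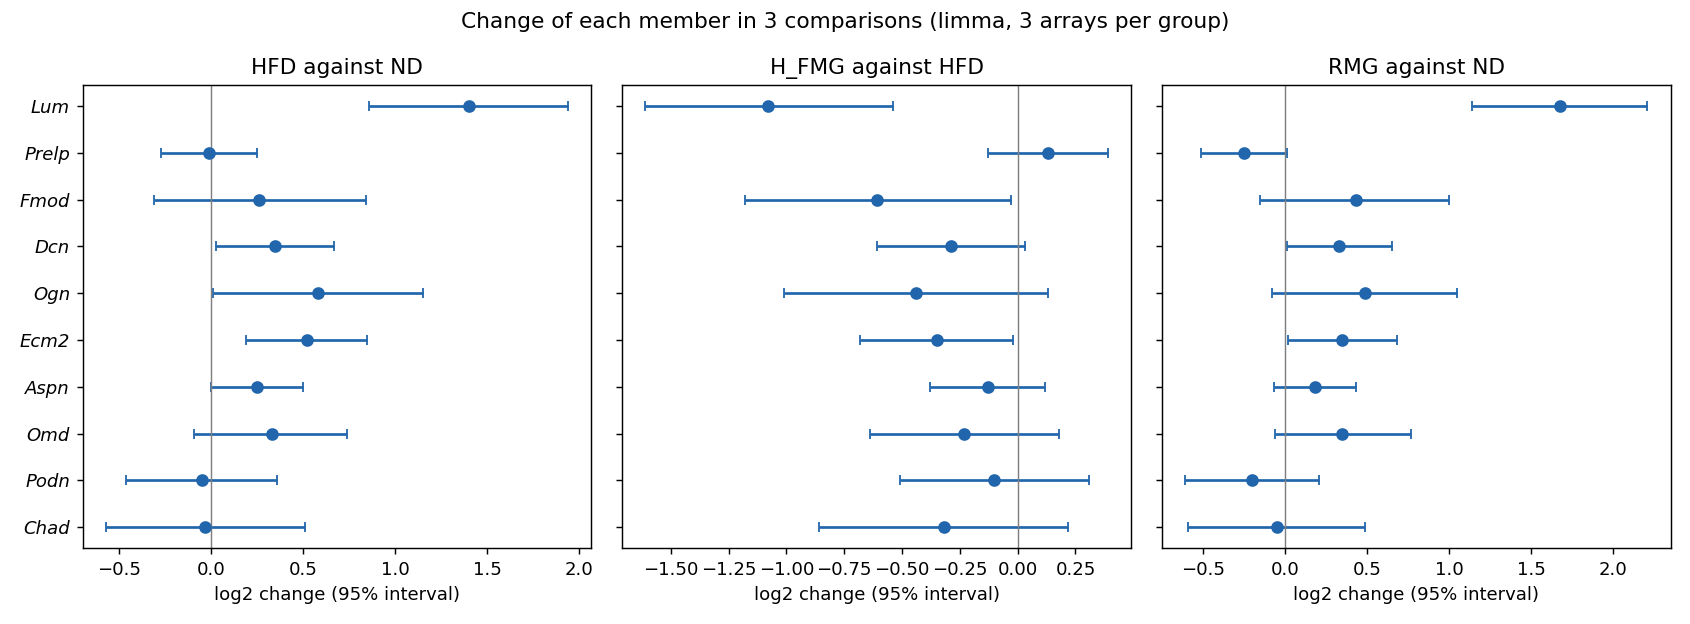
Log2 change of each member with its 95% interval in HFD against ND, H_FMG against HFD and RMG against ND (limma, 3 arrays per group). Lum has the largest change in all 3 panels, and the intervals of most other members cross 0.

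Across arrays, Lum went with macrophage genes. The mean of 12 macrophage markers correlated with Lum at r = 0.97 over 21 arrays (Spearman 0.97), and at 0.96 without the 2 arrays farthest from its median. Within H_FMG the markers stood at 8.70, 8.25 and 7.72 in the arrays where Lum was 8.32, 7.81 and 7.10. In L_FMG they stood at 8.56, 8.77 and 8.24 where Lum was 8.65, 8.18 and 7.88, so the order of arrays differed there. It matched in HFD, BC and SMG, and not in RMG and ND. By group the marker mean spanned 7.72 to 8.70 in H_FMG, 8.24 to 8.77 in L_FMG, 8.38 to 9.37 in SMG, 8.38 to 9 in BC, 9.28 to 9.46 in RMG, 9.03 to 9.29 in HFD and 7.58 to 8.25 in ND. In HFD against ND, 12 of 12 macrophage markers rose, for example Ms4a7 by 1.92 ± 0.32 and Cd68 by 1.60 ± 0.29, and in H_FMG against HFD 0 of 12 passed, with a median of -0.91. Whole fat was measured, so a change in the number of cells of a type and a change in RNA per cell cannot be told apart, and the part that macrophage content has in the Lum values was not tested. The fibroblast marker mean went with Lum less closely (r = 0.65), but its genes moved in both directions. Of 10 measured in HFD against ND, 3 were called higher, Mfap5, Pdgfra and Cd248, and 1 lower, Col15a1. Beside these, 6.54% of all genes were called higher and 2.09% lower. The adipocyte mean went the other way from Lum (r = -0.85).

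The 10 genes most like Lum by Pearson correlation over the 21 arrays were Ms4a7, Grn, Fcgr1, Lpxn, Cacna1d, Ms4a14, Col1a1, Sh3bp2, Ap2m1 and Plxnb2. Ms4a7, a membrane protein of macrophages, led with r = 0.98, and Grn, the lysosomal protein progranulin, followed with 0.978. Fcgr1, the high-affinity IgG receptor of myeloid cells, had 0.972. Ms4a7 and Fcgr1 also belong to the macrophage list, so they are no separate observation. Col1a1, the main chain of collagen I that lumican binds, had 0.962. After group means were removed the values were 0.92 for Ms4a7, 0.921 for Fcgr1 and 0.916 for Col1a1. These deviations are pooled over the 7 groups, so the values describe no single group.

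**Figure D3:**
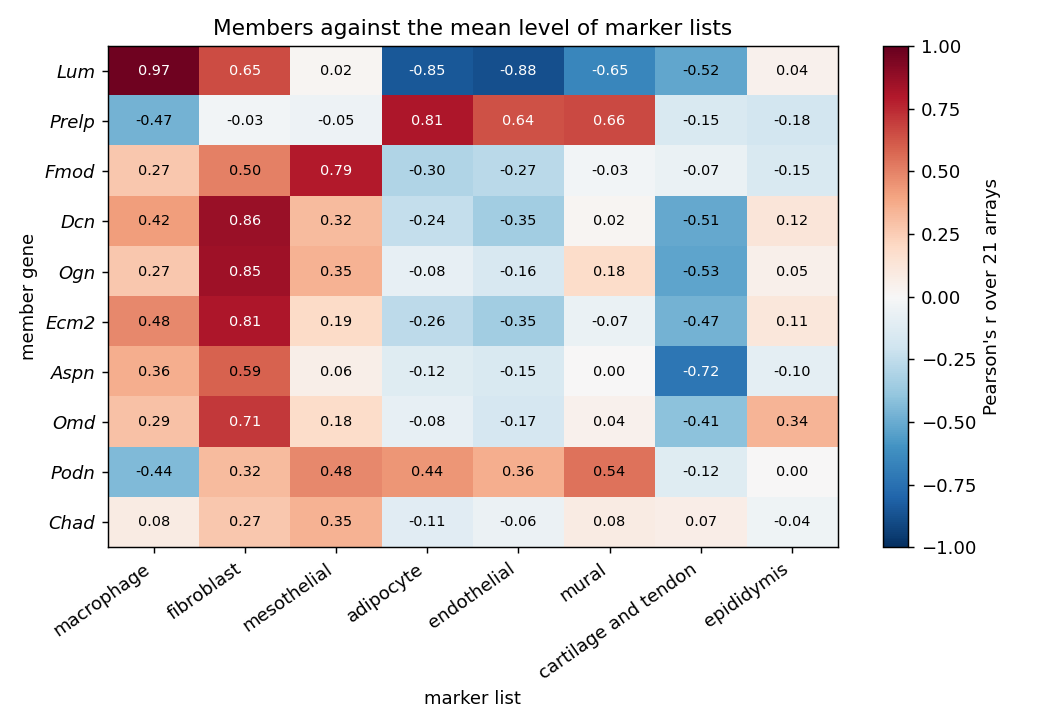
Pearson correlation over 21 arrays of each member (rows) with the mean log2 level of each marker list (columns), with red above 0 and blue below. Lum has 0.97 with the macrophage mean, Prelp 0.81 with the adipocyte mean, Fmod 0.79 with the mesothelial mean and Dcn 0.86 with the fibroblast mean.

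Dcn, Ogn and Ecm2 formed a second pattern. Decorin (Dcn) carries a single dermatan or chondroitin sulfate chain and binds collagen I and TGF-beta, osteoglycin (Ogn), also called mimecan, is a relative with few repeats, and Ecm2 is a matrix protein related to decorin in its leucine-rich part. Dcn and Ogn correlated at r = 0.958 over 21 arrays, and at 0.867 without ND 9. Ecm2 went with Dcn at 0.88 (0.80 without ND 9) and with Ogn at 0.84 (0.72 without ND 9). Dcn was also the gene most like Ogn and Ecm2 of all 16248, and Ogn the one most like Dcn, followed by Osr1, a transcription factor of connective tissue fibroblasts, at 0.912. The fibroblast marker mean correlated at 0.86 with Dcn, 0.85 with Ogn and 0.81 with Ecm2, which were 0.79, 0.80 and 0.68 without ND 9. Lum joined this pattern loosely (r = 0.54 with Dcn, 0.39 with Ogn and 0.59 with Ecm2), and once group means were removed its correlation was 0.06 with Dcn (0.31 without ND 9) and 0.27 with Ecm2 (0.44 without ND 9).

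Ecm2 had 6.96, 6.98 and 7.41 in HFD arrays, against 6.78, 6.82 and 6.19 in ND arrays. The groups did not overlap, and ND 9 gave the lowest value. Ecm2 rose by 0.52 ± 0.16 (limma, adjusted p = 0.0447), just inside the threshold. The call was lost in 9 of the 15 other settings, with values of 0.32 to 0.60 and adjusted p up to 0.206; without ND 9 it was 0.32 ± 0.14 (adjusted p = 0.197), and without HFD 7, the highest array, 0.37 ± 0.17 (adjusted p = 0.206). It was also lost without HFD 4 (adjusted p = 0.0517) and without HFD 6 (adjusted p = 0.0803).

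Ogn had 9.08, 9.15 and 9.48 in HFD arrays, against 9.29, 9.12 and 7.56 in ND arrays. ND 6 and ND 8 lay inside the HFD range, and ND 9 lay far below every other array. The difference of 0.58 ± 0.27 (adjusted p = 0.191) became 0.03 ± 0.14 without ND 9 (adjusted p = 0.926), and 0.89 ± 0.27 (adjusted p = 0.0446) without ND 6. Dcn had 11.28, 11.29 and 11.47 in HFD arrays, against 11.27, 11.25 and 10.46 in ND arrays. Its arrays did not overlap, but by a narrow margin, and the difference of 0.35 ± 0.15 (adjusted p = 0.154) was 0.09 ± 0.10 without ND 9 (adjusted p = 0.652). In H_FMG fat, Dcn read 11.19, 11.08 and 10.91, Ogn 9.03, 8.77 and 8.59 and Ecm2 6.85, 6.88 and 6.57, all below every HFD array. The differences from HFD were -0.29 ± 0.15 for Dcn (adjusted p = 0.411), -0.44 ± 0.27 for Ogn (adjusted p = 0.501) and -0.35 ± 0.16 for Ecm2 (adjusted p = 0.32), and none passed. The fibroblast marker mean lay between 7.97 and 8.30 in H_FMG and between 8.44 and 8.47 in HFD, and its part in these values was not tested.

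Aspn varied little and Omd was dim. Asporin (Aspn) resembles decorin but carries an aspartate-rich end in place of the chain, and osteomodulin (Omd) is a keratan sulfate proteoglycan of bone. Aspn spanned only 0.61 log2 units over all arrays, 7.72 in ND 9 to 8.32 in HFD 4. Omd lay between 2.94 in ND 9 and 3.93 in RMG 10, so its changes are hard to read. In HFD against ND, Aspn differed by 0.25 ± 0.12 (adjusted p = 0.195) and Omd by 0.33 ± 0.20 (adjusted p = 0.313). Without ND 9 these were 0.13 ± 0.12 (adjusted p = 0.546) and 0.17 ± 0.21 (adjusted p = 0.683). Omd went with Ecm2 at r = 0.76 (0.68 without ND 9) and Aspn with Dcn at 0.52, which was 0.08 without ND 9.

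Ecm2, Aspn, Omd and Ogn lie side by side on chromosome 13 in the RefSeq gene table (GRCm38.p6), in that order and within the span of Cenpp, a centromere protein gene. Cenpp read 3.65 to 4.23 over the arrays. On chromosome 10 Dcn is followed by Lum, Kera and Epyc, and on chromosome 1 Optc, Prelp and Fmod are neighbours. The 250 bases before the start of each of the 4 neighbours on chromosome 13 are shown because these genes adjoin yet differed in how closely they moved together. All are from RefSeq, GRCm38.p6, plus strand: Ecm2 at chr13:49504560-49504809, Aspn at chr13:49544193-49544442, Omd at chr13:49582212-49582461 and Ogn at chr13:49607765-49608014. Capitals mark TATAAA, or its reverse complement, in Aspn and Ogn, and the reverse complement of GGGCGG in Ecm2.

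Ecm2: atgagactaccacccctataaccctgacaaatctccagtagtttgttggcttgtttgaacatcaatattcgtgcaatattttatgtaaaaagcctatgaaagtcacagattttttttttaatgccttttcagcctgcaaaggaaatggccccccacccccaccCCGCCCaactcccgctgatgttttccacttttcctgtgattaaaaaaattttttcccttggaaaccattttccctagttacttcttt
Aspn: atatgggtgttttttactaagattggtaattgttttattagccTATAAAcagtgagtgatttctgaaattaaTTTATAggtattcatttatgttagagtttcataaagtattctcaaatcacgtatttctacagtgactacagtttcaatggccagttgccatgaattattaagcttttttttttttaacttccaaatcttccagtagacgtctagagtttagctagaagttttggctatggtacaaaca
Omd: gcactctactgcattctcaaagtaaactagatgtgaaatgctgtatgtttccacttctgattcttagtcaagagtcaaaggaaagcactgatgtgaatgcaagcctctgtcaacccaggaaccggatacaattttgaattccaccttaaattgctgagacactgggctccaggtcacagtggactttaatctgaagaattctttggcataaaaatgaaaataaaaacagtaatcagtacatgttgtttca
Ogn: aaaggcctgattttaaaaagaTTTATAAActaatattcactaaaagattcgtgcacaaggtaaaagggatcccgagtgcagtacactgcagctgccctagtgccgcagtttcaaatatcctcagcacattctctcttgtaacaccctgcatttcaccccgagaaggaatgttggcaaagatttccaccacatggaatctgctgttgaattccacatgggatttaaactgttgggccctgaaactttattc

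5 motifs were searched on both strands: TATAAA, the TATA box core, which 12.4% of 32851 promoter windows of this length hold, GGGCGG, the core of GC boxes (32.7%), CCAAT (33.8%), TGANTCA, the AP-1 form (6.75%), and CATTCC, the TEAD form (12.6%). Ogn had 2 overlapping matches to TATAAA on opposite strands and 1 to CATTCC. Aspn had 2 to TATAAA and 1 to CCAAT, Ecm2 had 1 to GGGCGG, and Omd had none of the 5. These matches describe letters only. Of the 10 members, 8 had an entry in the promoter table.

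Podn separated the diets in the opposite direction once ND 9 was set aside. Podocan is a leucine-rich proteoglycan first found in kidney podocytes and also made by smooth muscle cells. Podn had 7.78, 7.70 and 7.73 in HFD arrays, against 8.26, 8.06 and 7.05 in ND arrays. ND 6 and ND 8 were the highest of all 21 arrays and ND 9 the lowest, while the 15 supplemented arrays lay between 7.45 and 7.92. With all arrays the difference was -0.05 ± 0.20 (adjusted p = 0.889). Without ND 9 it was -0.42 ± 0.12 (limma, adjusted p = 0.0292), where 8.38% of all genes passed.

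The same held in 4 of the 5 supplemented groups, which share the 2 remaining ND arrays. L_FMG differed from ND by -0.48 ± 0.12 (adjusted p = 0.0399), SMG by -0.55 ± 0.12 (adjusted p = 0.00762), BC by -0.67 ± 0.12 (adjusted p = 0.00645) and RMG by -0.57 ± 0.12 (adjusted p = 0.00207), each without ND 9. H_FMG did not pass (-0.52 ± 0.12, adjusted p = 0.0728). Beside these, 1.69%, 6.13%, 2.29%, 15.1% and 0.135% of all genes passed in L_FMG, SMG, BC, RMG and H_FMG. With ND 9 kept, differences were -0.11 in L_FMG, -0.19 in SMG, -0.30 in BC and -0.20 in RMG, and none passed in that fit. With ND 9 kept but array weights used, SMG (-0.46, adjusted p = 0.0101), BC (-0.56, adjusted p = 0.0174) and RMG (-0.50, adjusted p = 0.00501) passed. Podn did not pass with these weights in HFD, L_FMG or H_FMG against ND, and in HFD against ND it passed only without ND 9. The weights come from how closely each array follows its group in these same data, so they are no separate observation. The choice to leave out ND 9 was made for every comparison in turn along with each other array, but the attention to Podn followed its values. Podn correlated with the macrophage mean at r = -0.44, or -0.64 without ND 9. The genes most like Podn were Gpx3, Gpd2 and Insig2 (r = 0.842, 0.84 and 0.833), an antioxidant enzyme, a mitochondrial glycerol phosphate dehydrogenase and a regulator of sterol synthesis. Without ND 9 these values were 0.763, 0.76 and 0.749. Without the 2 arrays farthest from the median of Podn they were 0.664, 0.593 and 0.572, so the likeness rests partly on single arrays.

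**Figure D4:**
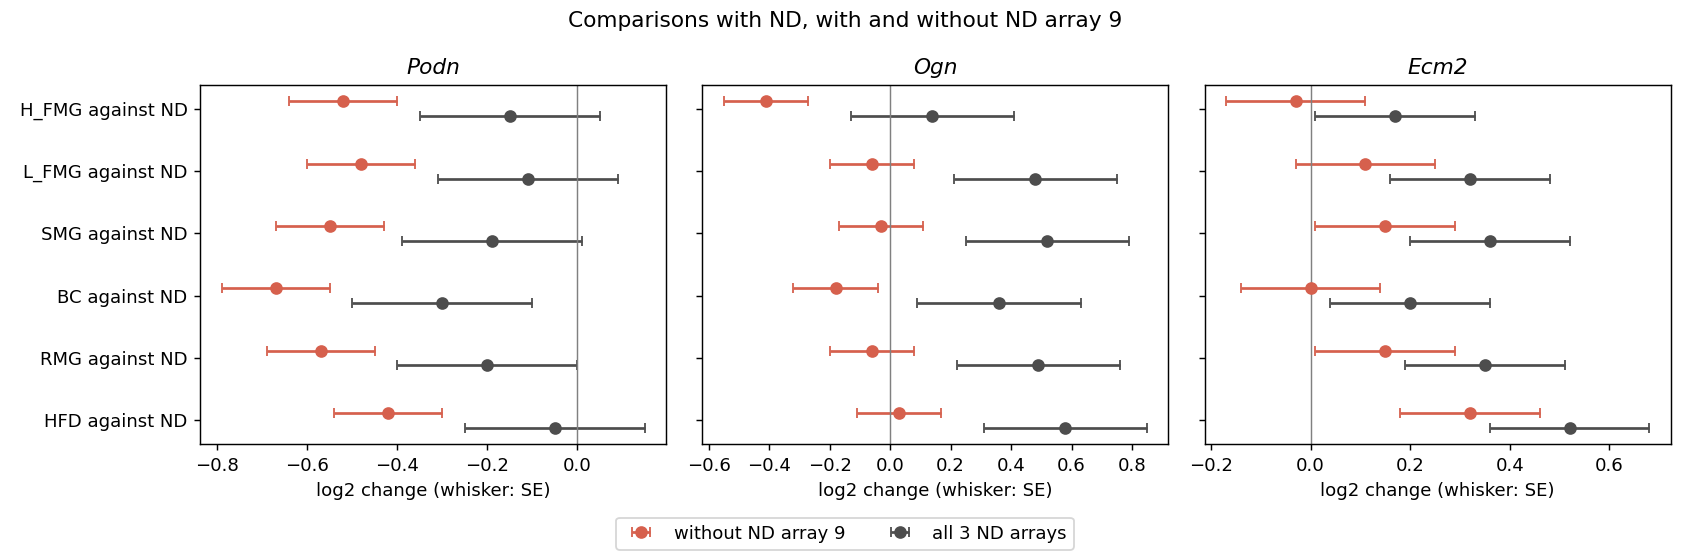
Log2 change in each comparison with ND for Podn, Ogn and Ecm2 (point, with SE whiskers), with all 3 ND arrays and without ND 9. Leaving out ND 9 moves Podn in HFD against ND to -0.42, against -0.05 with it, and Ogn to 0.03, against 0.58.

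Fmod, a keratan sulfate proteoglycan of tendon that acts in collagen cross-linking, varied between arrays of 1 group. It had 5.54, 5.36 and 5.33 in H_FMG arrays, against 6.34, 5.78 and 5.92 in HFD arrays, and the groups did not overlap. The difference was -0.61 ± 0.28 (adjusted p = 0.319). ND arrays read 6.46, 5.41 and 5.38, which cover the HFD values on both sides, and HFD against ND was 0.26 ± 0.28 (adjusted p = 0.576). Single arrays moved this value: it was 0.62 without ND 6, 0.09 without ND 8, 0.08 without ND 9 and 0.10 without HFD 4, and it passed in none of these. Fmod followed the mesothelial marker mean (r = 0.79, and 0.78 without ND 9), and the genes most like it were Rspo1 (0.795), a Wnt agonist, Msln (0.792), a surface protein of mesothelium, and Upk1b (0.78), a uroplakin. Msln and Upk1b are themselves on the mesothelial list. Fmod was highest in BC 11 (6.57), ND 6 (6.46), L_FMG 4 (6.39) and HFD 4 (6.34). The mesothelial mean there was 5.25, 5.62, 5.16 and 5.55. How much mesothelium on the pad's surface has a part in these values was not tested. BC 11 and L_FMG 4 were also the arrays highest in Chad, with which Fmod correlated at r = 0.64 (0.67 without ND 9). A second Fmod probe set differed by 0.16 in HFD against ND and by -0.21 in H_FMG against HFD.

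Prelp, a basic proteoglycan relative that joins basement membranes to collagen, stayed within 0.53 log2 units over all arrays. In HFD against ND it differed by -0.01 ± 0.12 (95% interval -0.27 to 0.25), and by -0.11 ± 0.12 without ND 9 (adjusted p = 0.643). It was the member that most followed the adipocyte markers (r = 0.81), against 0.64 for the endothelial mean and 0.66 for the mural mean, and the genes most like it were Fads3, Hsd17b4 and Aifm2 (0.898, 0.887 and 0.886). Fads3 is a fatty acid desaturase family member and Hsd17b4 an enzyme of peroxisomal beta oxidation. Prelp was lowest in RMG, 11.29, 11.20 and 11.35, and its difference from ND there was -0.25 ± 0.12 (adjusted p = 0.199). It passed with the mean of both its probe sets (-0.39, adjusted p = 0.00996) and with array weights (-0.32, adjusted p = 0.0294), and not without ND 9 (-0.35 ± 0.12, adjusted p = 0.0564).

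Chad, chondroadherin, is a cartilage protein that binds collagen and integrins and carries no sulfate chain. Its level was low, 3.07 to 3.76 in 19 arrays, and 4.45 in BC 11 and 4.48 in L_FMG 4. In the same 2 arrays Pax8, a transcription factor of kidney, thyroid and reproductive ducts, read 5.21 and 4.97 (2.68 to 3.96 elsewhere), and Wwc1 read 4.97 and 4.81. Over 21 arrays Chad correlated with Wwc1 at r = 0.944 and with Pax8 at 0.943, which fell to 0.772 and 0.746 without those 2 arrays, so the likeness rests partly on them. The epididymal marker mean in BC 11 and L_FMG 4 was 2.87 and 2.94, within the range of 2.78 to 3.21 over all arrays. Chad differed by -0.03 ± 0.26 in HFD against ND (adjusted p = 0.949) and by -0.32 ± 0.26 in H_FMG against HFD (adjusted p = 0.627).

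**Figure D5:**
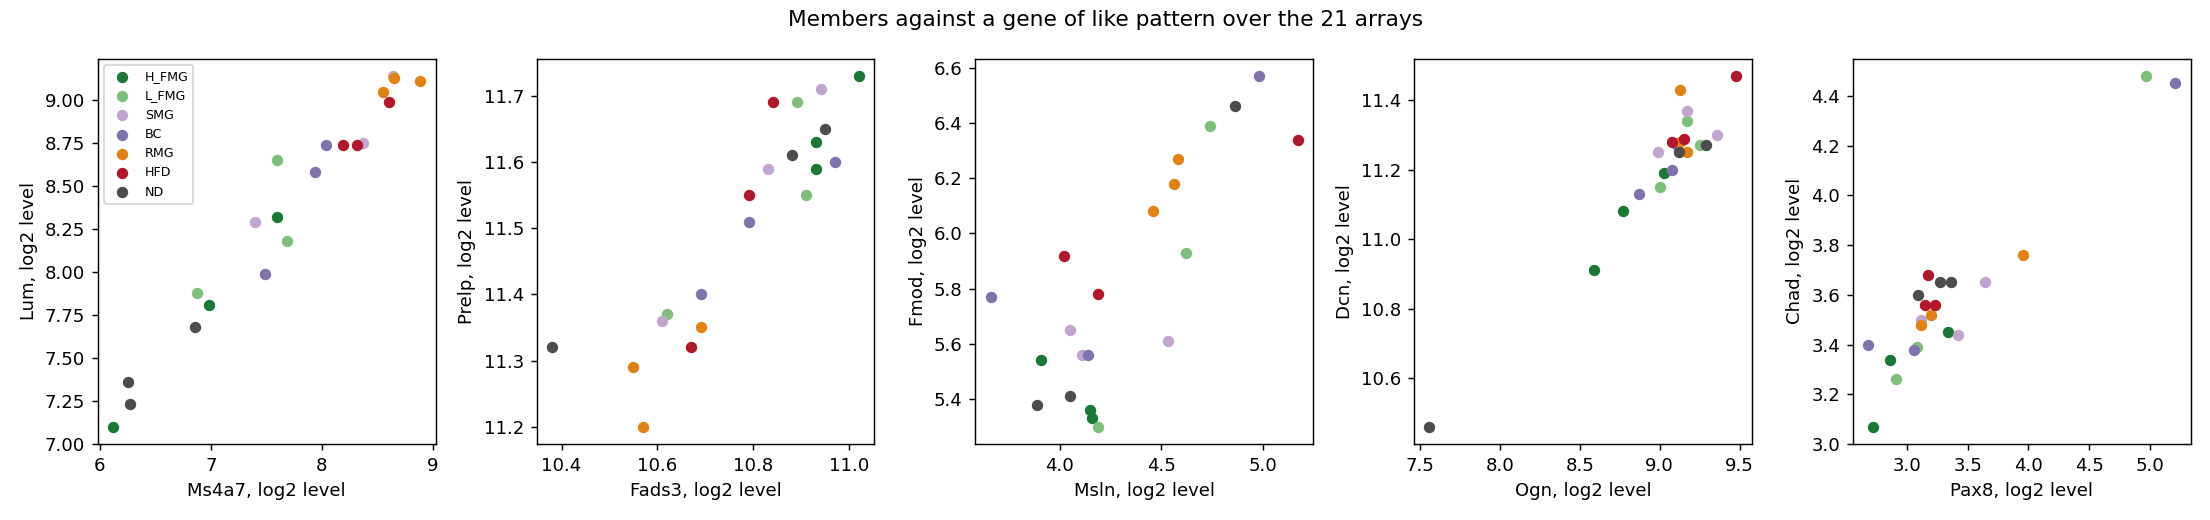
Log2 level of Lum, Prelp, Fmod, Dcn and Chad (vertical) against that of Ms4a7, Fads3, Msln, Ogn and Pax8 (horizontal), 1 point per array, coloured by group. Lum and Ms4a7 form 1 band over the arrays, while for Dcn and Ogn the ND 9 array (10.46 and 7.56) and for Chad and Pax8 the BC 11 and L_FMG 4 arrays lie far from the rest.

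Set beside the whole table, the members moved unevenly. In HFD against ND, 2 of 10 members were called higher, Lum and Ecm2, and 0 lower, while 8.63% of all genes were called, 6.54% higher and 2.09% lower; Lum was known to be higher, so nothing is read from its share. Arrays did not overlap for 3 of 10 members, Lum, Dcn and Ecm2, where 15.7% of genes did so in the higher direction. The median change of the members was 0.29, that of all genes -0.04. These values rest in part on ND 9. Without ND 9, Lum (1.53) was called higher and Podn (-0.42) lower, Ecm2 (0.32) was not called, and 8.38% of all genes passed. The other members then differed by 0.17 (Omd), 0.13 (Aspn), 0.09 (Dcn), 0.08 (Fmod), 0.03 (Ogn), -0.03 (Chad) and -0.11 (Prelp). In H_FMG against HFD, 0 of 10 members were called by limma (3 at unadjusted p under 0.05), where 0.00615% of genes were called, that is 1 gene, and 2350 had an unadjusted p under 0.05. The arrays lay apart and lower for 6 members, Lum, Dcn, Fmod, Ogn, Ecm2 and Chad, against 11.4% of genes. The members' median was -0.30 and that of all genes 0.02, and 9 of 10 were negative, while 53.6% of all genes were positive. These counts and the members' median hold Lum, which was known to be lower here, so nothing is read from its share. HFD against ND and H_FMG against HFD share the HFD arrays. In L_FMG, SMG, BC and RMG against HFD 0 members and 0 genes were called; 1 member had arrays lying lower in L_FMG (10.1% of genes), Lum, 1 in SMG (3.51%), Fmod, 2 in BC (7.35%), Dcn and Podn, and 1 in RMG (4.65%), Podn, where Lum lay higher.

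The genes that build and use these proteins were counted from lists, to be read beside the 6.54% of all genes called higher in HFD against ND and the 10.2% in RMG against ND. In either direction these shares were 8.63% and 14.8%. Of 11 measured fibrillar collagen genes, 2 rose in HFD against ND, Col1a2 by 0.67 ± 0.14 (adjusted p = 0.00702) and Col1a1 by 0.66 ± 0.17 (adjusted p = 0.0184), with a list median of 0.28. In RMG against ND 6 of 11 rose, among them Col3a1 by 0.83 ± 0.15 and Col14a1 by 0.88 ± 0.23. Of 23 genes for building sulfate chains 2 rose with HFD, B4galt1, a galactosyltransferase of keratan sulfate backbones, by 0.57 ± 0.13 (adjusted p = 0.0124), and Dse, the dermatan sulfate epimerase, by 0.48 ± 0.12 (adjusted p = 0.0153). In RMG against ND 4 rose and 1 fell, Chst1, a keratan sulfate sulfotransferase, with a change of -0.92 ± 0.22 (adjusted p = 0.00619).

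Of 7 proteases that cleave these proteins 1 rose with HFD, Mmp14, the membrane matrix metalloprotease known to cut lumican, by 0.98 ± 0.16 (adjusted p = 0.00309). In RMG against ND 2 of the 7 rose, Mmp14 by 1.31 and Bmp1 by 0.47. Of 19 growth factor and receptor genes 4 rose with HFD, among them Lrp1, an endocytic receptor that takes up decorin, by 0.47 ± 0.10 (adjusted p = 0.00654), and Tlr4, by 0.45 ± 0.12 (adjusted p = 0.0259). In RMG against ND 7 of the 19 rose and 2 fell, Met (-0.7) and Kdr (-0.8). Of 10 genes responsive to TGF-beta 2 rose with HFD, Fn1 by 0.51 ± 0.12 and Postn by 0.52 ± 0.13. Pmepa1 (-0.56 ± 0.20), Ccn2 (-0.47 ± 0.25), Smad7 (-0.32 ± 0.21) and Acta2 (-0.16 ± 0.22) were lower without passing. In RMG against ND 4 of the 10 rose and 1 fell, Pmepa1 (-0.63 ± 0.20, adjusted p = 0.0374). Of 4 other family genes measured, Kera, Epyc, Optc and Chadl, 0 passed in HFD against ND, where Epyc differed by 0.81 ± 0.31 (adjusted p = 0.108). Optc was called higher in H_FMG against RMG (0.72 ± 0.16, adjusted p = 0.0135), the comparison picked after its values were seen. Most other list genes called there were lower: 5 of 11 collagen genes, 4 of 10 TGF-beta genes and 1 of 7 proteases, with 0 higher. Of the 23 chain genes 2 were lower and 1 higher, and of the 19 growth factor and receptor genes 4 were lower and 2 higher. Of all genes 4.92% were called lower and 2.28% higher. In H_FMG against HFD 0 genes of these lists passed. The macrophage marker mean moved along with these comparisons, with a median change of 1.17 in HFD against ND, and its part in the collagen and protease values was not tested.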

How the data were processed

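The deposited values were log2 levels, 1 per probe set and array, for 21 GeneChip whole-transcript arrays. Per the labels' protocols, Trizol-extracted total RNA was turned into sense cDNA, fragmented and labelled with biotin; how the authors summarised and normalized the scans is not stated in those labels. The log base 2 was taken from the values (0.84 to 12.71). Array medians lay between 4.23 and 4.39, and no further normalization was applied.

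Of 24291 complete probe sets, 17067 had 1 gene symbol, 1139 several and 6085 none. The table was held in part: most genes on chromosomes 7, 8, 9 and X, among them Bgn, Tsku, Nyx and Podnl1, were not analysed here. The brightest probe set by mean over arrays stood for a gene, which gave 16248 genes. Correlations between arrays over probes were 0.9668 to 0.9927.

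The test was limma (version 3.58.1, R 4.3.3) on all arrays together, with a mean for each group and an intensity trend. It was two-sided, with Benjamini-Hochberg adjustment over all genes and a threshold of 0.05. Errors are SE, with n = 3 arrays per group, a number that limits the precision. Likeness is Pearson's r over 21 arrays, which share processing, and carries no p. The members, gene lists and tests were chosen with earlier results of these data known. Named are all members, up to 4 called genes per list, other called list genes, the 10 genes most like Lum and the 3 most like each other member, of which the text gives a selection. Pax8, Wwc1 and Cenpp values per array were looked up after the likeness or position was known. Title numbers did not pair samples: deviations of same-numbered arrays correlated at -0.30 to 0.18 over 18 pairs. No scan date was given, so batches could not be checked. The test was tested on simulated data. Alternatives were other scalings, probe choices, gene filters, variance models, array weights, fits of 2 groups, a block on numbers and leaving out each array.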

Additional observations from a re-analysis of the deposited data

Results flagged for a closer look

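In 6 cases all arrays of 1 supplemented group lay below the mean of the HFD arrays and all arrays of another lay above it. The values are the differences between the 2 groups' changes from HFD, which share the HFD arrays, with limma's adjusted p for the difference. The cases were picked by their values, and Lum was chosen in part on the H_FMG and HFD arrays, so its p-values here are a description. For Lum the difference was -1.36 in H_FMG against RMG (adjusted p = 0.00755), -0.86 in L_FMG against RMG (adjusted p = 0.0989) and -0.66 in BC against RMG (adjusted p = 0.352). For Fmod it was -0.77 in H_FMG against RMG (adjusted p = 0.101) and -0.57 in SMG against RMG (adjusted p = 1). For Prelp it was 0.37 in H_FMG against RMG (adjusted p = 0.0804), with H_FMG the higher group. Prelp passed in 5 other settings, with adjusted p of 0.0324 under quantile normalization, 0.0183 with array weights, 0.0362 without dim genes, 0.0259 with only the 2 groups fitted and 0.00626 with the mean of its probe sets, and Fmod passed with only the 2 groups fitted (adjusted p = 0.00404). RMG is the group whose supplement the labels do not describe. The macrophage marker mean lay between 7.72 and 8.70 in H_FMG arrays and between 9.28 and 9.46 in RMG arrays, and its part in these differences was not tested.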

How the results depend on the processing

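Each of 160 member results was recomputed under 14 to 18 other settings, 2398 values in all. None changed the sign of a called value, 13 lost the threshold and 25 gained it. Another 32 stayed uncalled but changed sign and moved by more than the SE of the main fit. The remaining 2328 kept their side of the threshold, and uncalled ones among them could change sign by less than that. Aspn in SMG against HFD, for example, kept its sign in 7 of 15 settings. The number of members called in HFD against ND was 2, and 1 under quantile normalization, with every probe tested, without an intensity trend, with array weights and with only the 2 groups fitted. With array weights more genes were called over the whole table, given in brackets as main and weighted counts. Lum was then called in H_FMG against HFD (1 and 566), the trend over fermented grain (0 and 222) and L_FMG against ND (1 and 460). It was also called in the F test over the high-fat groups (8 and 1436). In the main fit 0 members were called in these, and Lum was chosen on some of their arrays, so nothing is read from it. Members called went from 0 to 2 in BC against ND (18 and 629 genes) and from 1 to 3 in RMG against ND (2401 and 3618). In SMG against ND they went from 1 to 2 (948 and 2913). With only the 2 groups fitted, SMG against ND gave 0. For H_FMG against RMG (1) quantile normalization, array weights and leaving out dim genes gave 2, where Prelp joined Lum, and fitting only the 2 groups gave 3, with Fmod as well. Leaving out 1 array gave 1 to 3 members in HFD against ND, 0 to 1 in H_FMG against HFD, the trend, L_FMG against ND, H_FMG against RMG and the F test, 0 to 2 in BC against ND and SMG against ND, and 1 to 2 in RMG against ND. With the title number as a replicate block the counts were 2 in HFD against ND, 1 in RMG against ND, SMG against ND and H_FMG against RMG, and 0 in all other comparisons, so the block changed no call; the numbers do not pair the samples. The count of genes called in HFD against ND was 1403, and lay between 368 and 2432 over the settings. It lay between 0 and 566 in H_FMG against HFD, 1412 and 3618 in RMG against ND and 0 and 2913 in SMG against ND. In BC against ND it lay between 1 and 629, and in H_FMG against RMG between 32 and 2349. The settings for H_FMG against RMG and the correlations without ND 9 were chosen after seeing the data. The cause of these shifts was not tested. With 3 arrays per group, small changes and those of dim genes such as Omd and Chad are not resolved.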
